A study of Danio rerio with 6 samples.

Results

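The sterol and fatty acid synthesis genes examined here were 32 names chosen by their place in the pathway, and chosen with their levels in these 6 libraries already seen. The gene table held 31 of the 32 names out of 32520 genes, and all 31 were among the 20382 genes tested. They comprised 20 genes of the sterol branch, 6 of the fatty acid branch, 2 of sterol uptake and transport and 3 regulators. The name acly had no row. Because the choice followed from these same libraries, the counts, fold changes and p-values of the members below are a description of them and not independent evidence.

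Animal cells build cholesterol from acetyl-CoA by way of mevalonate, farnesyl diphosphate and squalene, and build long-chain fatty acids from the same precursor by way of malonyl-CoA. Both routes are controlled by the SREBP transcription factors, which are held in the endoplasmic reticulum by Insig proteins when membrane sterol is plentiful and are cut free to enter the nucleus when it is scarce. In mammals SREBP2, encoded by srebf2, acts mainly on sterol synthesis and the LDL receptor, and SREBP1, encoded by srebf1, mainly on fatty acid synthesis. Mammalian skin uses both products, since its epidermal cells make barrier lipids.

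The study asked how loss of the Csf1 receptors affects mpeg1+ cells of adult zebrafish skin, and 3 groups of 2 libraries were sequenced from GFP+ cells sorted from untreated fish aged 3 months. Every fish carried 3 transgenes, namely EGFP under the mpeg1 promoter, Cre under the endothelial kdrl promoter, and a loxP-STOP-loxP DsRed cassette under a beta-actin promoter that Cre switches on for good in endothelium and the blood cells born from it. Control GFP+DsRed- cells (replicates 1 and 2) and control GFP+DsRed+ cells (replicates 3 and 1) came from fish with wild-type csf1r genes. The third group, csf1rDM GFP+DsRed- (replicates 2 and 3), came from fish homozygous for csf1ra j4e1 and csf1rb sa1503 and is without DsRed by the study's description, as the labels name only GFP. The labels do not say whether libraries of a group came from separate fish, so p-values measure the spread between these libraries, which may be technical.

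Read counts given here are estimates from the step between low deposited values. By them the libraries held between 4024255 reads (csf1rDM replicate 3) and 14816042 reads (control GFP+DsRed+ replicate 3) assigned to genes. Both mutant libraries were the shallowest. Values are given as CPM, the deposited signal of a gene scaled to a common library total, and 1 read was worth 0.067 to 0.248 CPM. The gene csf1ra ranged from 86.9 to 102 CPM in control GFP+DsRed-, from 1081 to 1124 CPM in the DsRed+ cells and from 1.4 to 2.25 CPM in csf1rDM. The 13 macrophage markers summed to 288 to 559 CPM in control GFP+DsRed-, 5038 to 5801 CPM in control GFP+DsRed+ and 260 to 363 CPM in csf1rDM. Of these, csf1rb and mfap4 were at 0 in both csf1rDM libraries. In control GFP+DsRed- they were also at a few reads, with csf1rb at 0.55 and 0.60 CPM and mfap4 at 0.80 and 0.50 CPM. Metaphocytes are the epithelial-like mpeg1+ skin cells. Their 5 markers summed to 3420 to 3796 CPM in control GFP+DsRed-, 995 to 1190 CPM in control GFP+DsRed+ and 4203 to 4322 CPM in csf1rDM. In every library cdh1 and epcam made up most of that sum. In control GFP+DsRed- cdh1 had 1414 and 1447 CPM and epcam 1354 and 1426 CPM. In control GFP+DsRed+ (replicates 3 and 1) cdh1 had 456 and 549 CPM and epcam 495 and 596 CPM. There cldnh had 26.3 and 26.7 CPM, grn2 16.9 and 17.5 CPM, and spic 0.50 and 0.60 CPM. In control GFP+DsRed- these 3 had 297 and 192, 634 and 311, and 97.5 and 44.3 CPM. In bulk libraries such as these, fewer cells of a type and less RNA per cell cannot be told apart.

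The early part of the sterol branch, the mevalonate pathway, was measured through 9 genes, and 8 of them were lower in both control GFP+DsRed+ libraries than in both control GFP+DsRed- libraries, lower again in csf1rDM replicate 2 for most, and far lower in csf1rDM replicate 3. The gene hmgcs1, HMG-CoA synthase, was found at 1912 and 2312 CPM in control GFP+DsRed-, at 830.4 (replicate 3) and 1067 (replicate 1) CPM in control GFP+DsRed+, and 863 (replicate 2) and 71.3 (replicate 3) CPM in csf1rDM. Its reductase partner hmgcra, the rate-limiting enzyme of the pathway, had 1289 and 1356 CPM, then 588 and 607 CPM, then 475 and 50.9 CPM in the same library order, which is kept below. No library of one group reached the range of another for hmgcra, and csf1rDM replicate 3 lay 9.32-fold below csf1rDM replicate 2.

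The second reductase copy, hmgcrb, was the exception of the branch. It measured 50.9 and 47.1 CPM, then 67.9 and 54.9 CPM, then 58.0 and 67.1 CPM. The control GFP+DsRed- libraries were thus the lowest for hmgcrb, and the 2 mutant libraries differed by little. How reads shared by the 2 reductase copies were assigned was not checked.

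The other mevalonate genes ran in parallel with hmgcra. The kinase gene pmvk measured 42.4 and 49.3 CPM, then 27.3 and 28.1 CPM, then 14.0 and 5.25 CPM, the smallest difference of the branch between csf1rDM replicate 3 and control GFP+DsRed- apart from hmgcrb. The other kinase, mvk, measured 31.3 and 35.5 CPM, then 18.5 and 15.1 CPM, then 10.1 and 0.25 CPM. That last value is 1 read, so the ratio of the control GFP+DsRed- mean to it, 134-fold, has an exact Poisson 95% interval of 24.0 to 5280 for counting error. The acetoacetyl-CoA thiolase gene acat2, the decarboxylase gene mvda, the isomerase gene idi1 and the farnesyl diphosphate synthase gene fdps each had their groups in the same order without overlap, and their values in csf1rDM replicate 3 were 3.00, 2.5, 6.75 and 11.4 CPM against control GFP+DsRed- means of 99.1, 171, 242 and 793 CPM.

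From squalene to cholesterol all 11 genes were lower in both DsRed+ libraries than in control GFP+DsRed-, and lowest in csf1rDM replicate 3. These were fdft1 (squalene synthase), sqlea (squalene epoxidase), lss (lanosterol synthase), cyp51 (removal of a methyl group from the sterol core), tm7sf2 (reduction of the double bond this leaves), msmo1, nsdhl and hsd17b7 (removal of the paired methyl groups), ebp (the sterol isomerase), sc5d (the desaturase) and dhcr7 (the last reductase of one arm). As an example, cyp51 measured 762 and 931 CPM, then 377 and 419 CPM, then 249.9 and 16.9 CPM. The largest difference was that of ebp, with 448 and 549.7 CPM, then 214 and 260.0 CPM, then 109 and 4.25 CPM, which is 117-fold lower in csf1rDM replicate 3 than the mean of control GFP+DsRed-. The smallest difference in csf1rDM replicate 2 was that of hsd17b7, with 603 and 760.2 CPM, then 217 and 395 CPM, then 459 and 41.5 CPM, so that this gene was lower in control GFP+DsRed+ than in csf1rDM replicate 2.

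**Figure D1:**
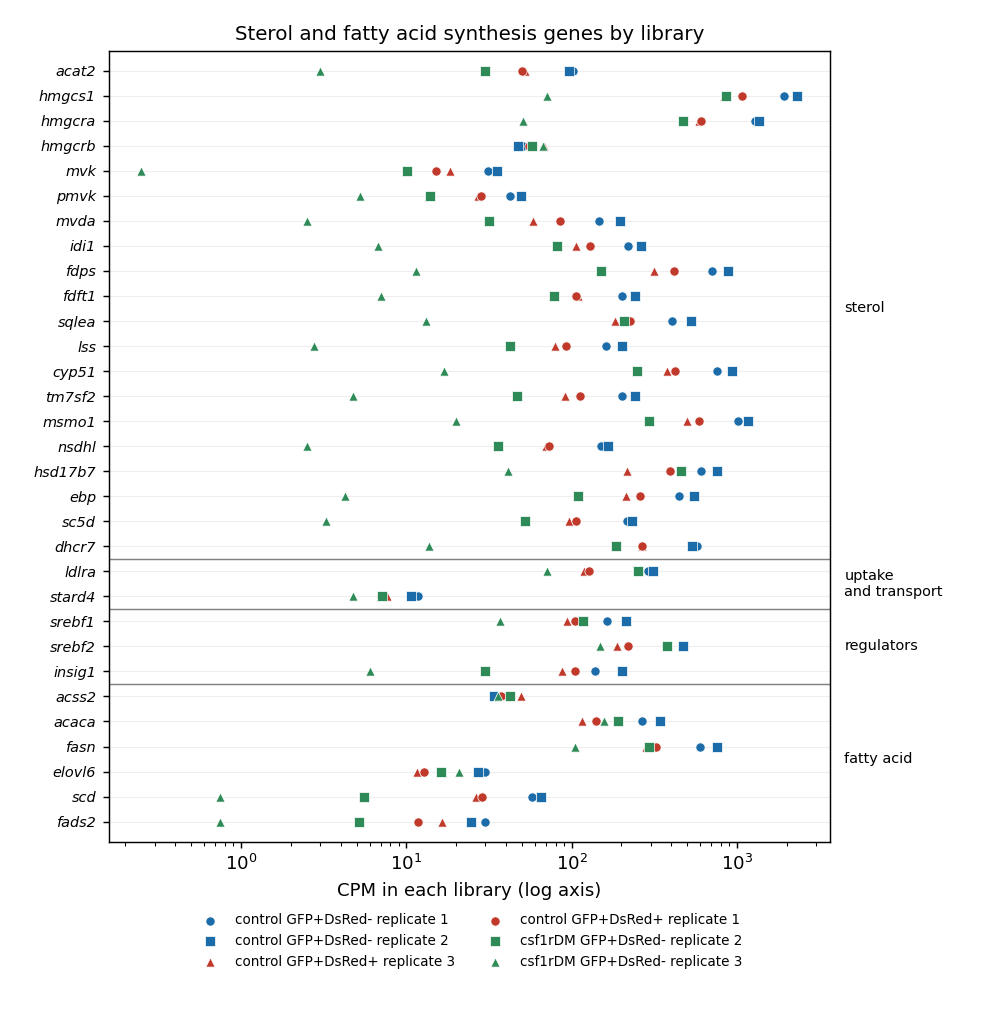
CPM of each of the 31 genes in the 6 libraries, on a log axis, with colour for the group and marker shape for the replicate number, and grey lines between branches. In the sterol rows other than hmgcrb the blue control GFP+DsRed- points lie farthest right and the csf1rDM replicate 3 triangle lies far to the left, whereas the points of hmgcrb and acss2 lie close together.

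Among the regulators insig1, whose protein retains SREBP and which is itself an SREBP target in mammals, measured 139 and 202 CPM, then 87.3 and 105 CPM, then 29.8 and 6.00 CPM. It fell in both mutant libraries as the sterol enzymes did. The SREBP genes did not share that depth. The gene srebf2 measured 374 and 475 CPM, then 189 and 218 CPM, then 376 and 149 CPM, and srebf1 measured 164 and 212 CPM, then 93.4 and 105 CPM, then 118 and 37.0 CPM. In csf1rDM replicate 2 srebf2 therefore lay within the range of control GFP+DsRed- at 88.6% of its mean, while srebf1 stood at 62.7% and insig1 at 17.5%. In csf1rDM replicate 3 the same 3 genes stood at 35.0%, 19.7% and 3.52%.

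The uptake gene ldlra, an LDL receptor, went with srebf2 rather than with the enzymes. It measured 289 and 309 CPM, then 119 and 128 CPM, then 254 and 71.3 CPM, so csf1rDM replicate 2 kept 85.0% and csf1rDM replicate 3 kept 23.9% of the control GFP+DsRed- mean. The sterol carrier gene stard4 was low throughout, at 11.7 and 10.7 CPM, then 7.64 and 7.0 CPM, then 7.10 and 4.75 CPM.

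The fatty acid branch divided. The desaturase genes scd and fads2, which introduce double bonds, were depleted in both mutant libraries. For scd the values were 57.2 and 65.2 CPM, then 26.3 and 28.8 CPM, then 5.55 and 0.75 CPM, and for fads2 they were 30.03 and 24.6 CPM, then 16.5 and 11.7 CPM, then 5.15 and 0.75 CPM. The value in csf1rDM replicate 3 is 3 reads for each gene. Ratios of the control GFP+DsRed- mean to it were 81.6-fold for scd (95% interval 27.9 to 396) and 36.4-fold for fads2 (95% interval 12.5 to 177), the intervals again being exact Poisson ones for counting error. In csf1rDM replicate 2, which had more reads, scd was 11-fold and fads2 5.31-fold below that mean.

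The remaining fatty acid genes differed less in the mutant libraries. The synthase gene fasn measured 599.8 and 754 CPM, then 279.9 and 322 CPM, then 293 and 104 CPM. For acaca, the acetyl-CoA carboxylase gene that commits carbon to the branch, the values were 265 and 340.2 CPM, then 116 and 141 CPM, then 191 and 156 CPM. The elongase gene elovl6 measured 29.9 and 27.2 CPM, then 11.5 and 12.7 CPM, then 16.2 and 20.9 CPM. Both acaca and elovl6 were thus lowest in control GFP+DsRed+, with the mutant libraries between the control groups. The acetyl-CoA synthetase gene acss2 measured 41.4 and 34.1 CPM, then 49.2 and 37.2 CPM, then 42.4 and 35.8 CPM, and its groups overlapped.

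Summed over its 20 genes the sterol branch reached 9235 and 10780 CPM in control GFP+DsRed-, stood at 4261 and 5104 CPM among DsRed+ cells of the same controls, and had 3470 CPM in csf1rDM replicate 2 and 348 CPM in csf1rDM replicate 3. The 6 fatty acid genes summed to 1023 and 1245 CPM, then 499 and 553 CPM, then 554 and 319 CPM. In csf1rDM replicate 3 the sterol sum was 28.8-fold and the fatty acid sum 3.56-fold below the control GFP+DsRed- mean, whereas in control GFP+DsRed+ the sums of both branches were 1.96-fold to 2.35-fold below it.

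**Figure D2:**
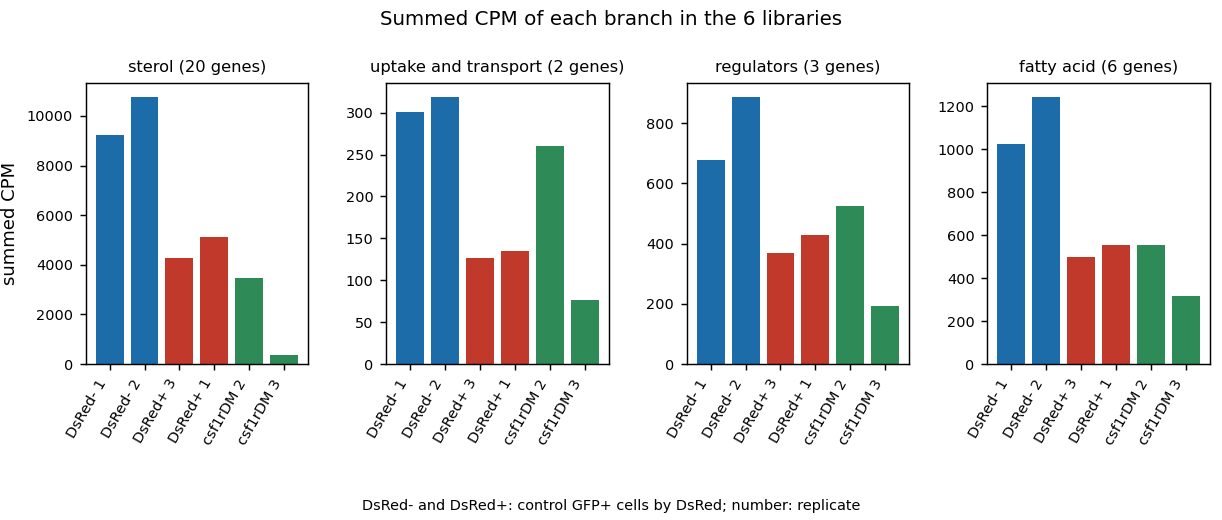
Bars give the summed CPM of the sterol, uptake and transport, regulator and fatty acid genes in each of the 6 libraries, on axes that start at 0 and differ between panels. The sterol bar of csf1rDM replicate 3 is at 348 CPM against 3470 CPM in csf1rDM replicate 2, while in the fatty acid panel these bars stand at 319 and 554 CPM.

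The comparison of the control populations showed a difference of nearly uniform size. After adjustment for library composition, 29 of the 31 genes (19 sterol, 5 fatty acid and all 5 others) were lower in both control GFP+DsRed+ libraries than in both control GFP+DsRed- libraries, against 35.7% of all genes tested. The exceptions were hmgcrb and acss2. In CPM without that adjustment, control GFP+DsRed- exceeded control GFP+DsRed+ by a median of 2.13-fold over the 19 sterol genes other than hmgcrb. The range was from 1.65-fold for pmvk to 2.38-fold for mvda. With the adjustment, no member differed by more than 2-fold between the replicates of control GFP+DsRed- (3.01% of all genes did) or between those of control GFP+DsRed+ (3.71%).

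Tests used limma on log2(CPM + 1), a scale that understates the change of low genes, with all 6 libraries sharing 1 estimate of the spread per gene and Benjamini-Hochberg adjustment over the 20382 genes. At an adjusted p below 0.05 they called 2 members lower in control GFP+DsRed+ (10.8% of all genes were called lower) and 0 higher (14.6% of all genes). Both were fatty acid genes, elovl6 (log2 fold change -0.96 ± 0.20 SE, adjusted p = 0.0146) and acaca (-1.01 ± 0.22, adjusted p = 0.0153). The members that came next were hmgcrb at 0.53 ± 0.17 (adjusted p = 0.0601), fasn at -0.95 ± 0.44 (0.168), ldlra at -1.05 ± 0.51 (0.182), srebf2 at -0.83 ± 0.41 (0.185), acss2 at 0.40 ± 0.20 (0.192), scd at -0.91 ± 0.55 (0.281), srebf1 at -0.69 ± 0.48 (0.351) and stard4 at -0.36 ± 0.26 (0.356).

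Apart from pmvk and hmgcrb, the sterol genes had SEs of 0.81 to 1.2 in that fit, hmgcra for one at -0.93 ± 0.87 (adjusted p = 0.486), since the gap between the mutant libraries entered the shared spread. With limma fitted to the 4 control libraries alone, 23 members were called lower (17 sterol, 4 fatty acid and 2 others, against 13.7% of all genes), and 1 was called higher, hmgcrb (17.4% of all genes). There hmgcra was at -0.91 ± 0.15 (adjusted p = 0.0104), srebf2 at -0.81 ± 0.21 (0.0345) and ldlra at -1.03 ± 0.15 (0.00669). The members not called in that fit were pmvk, hsd17b7, stard4, srebf1, insig1, acss2 and fads2. In the fit of all libraries, leaving out csf1rDM replicate 2 or csf1rDM replicate 3 gave 23 or 24 lower members (14.2% or 14.3% of all genes). Leaving out control GFP+DsRed- replicate 1, control GFP+DsRed- replicate 2 or control GFP+DsRed+ replicate 3 gave 1, 0 and 0 (4.36%, 3.58% and 2.67% of all genes).

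Branch medians of the log2 fold change were -0.86 for sterol genes, -0.93 for fatty acid genes and -0.69 for regulators, against -0.03 for all genes tested. Markers of some other cell types were also lower in control GFP+DsRed+, and those of others were not. The 6 keratinocyte markers had sums of 17500 and 22290 CPM among control GFP+DsRed- libraries and of 7906 and 12140 CPM among DsRed+ ones, and none of them was called lower. Over the 5 fibroblast markers the sums were 10470 and 9242 CPM against 4643 and 4681 CPM, and over the 8 xanthophore markers 597 and 538 CPM against 86.6 and 63.7 CPM. The melanophore markers, of which 2 were called lower, summed to 80.6 and 80.9 CPM against 12.5 and 13.3 CPM. Neutrophil and erythrocyte sums were lower too, whereas lymphocyte and endothelium sums overlapped between the populations. The neutrophil sums were small, at 12.7 and 15.5 CPM against 5.85 and 8.90 CPM. Of the 4 neutrophil markers 1 was called lower and 0 higher, and their median log2 fold change was 0.22. The iridophore sums went the other way, at 82.9 and 67.3 CPM against 123.8 and 124.3 CPM. Of the 6 iridophore markers, 2 were called higher and 2 lower, and their median log2 fold change was -0.79. The part of these marker differences in the lower sterol and fatty acid gene levels was not tested.

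The genotype comparison set csf1rDM GFP+DsRed- against control GFP+DsRed-. Here 4 members were called lower (3.27% of all genes were) and 0 higher (3.24%). These were scd (log2 fold change -4.06 ± 0.55 SE, adjusted p = 0.0127), insig1 (-3.37 ± 0.62, adjusted p = 0.0304), fads2 (-2.96 ± 0.55, adjusted p = 0.0304) and pmvk (-2.13 ± 0.39, adjusted p = 0.0304), all by limma. Leaving out control GFP+DsRed- replicate 1 or replicate 2 reduced the count to 0 (0.563% or 0.405% of all genes).

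The genes fdps at -4.03 ± 0.99 (adjusted p = 0.0597) and hmgcra at -2.92 ± 0.87 (0.0895) had wider errors and were not called. Nor were fasn at -1.79 ± 0.44 (0.0611), hmgcrb at 0.49 ± 0.17 (0.122), srebf1 at -1.33 ± 0.48 (0.141), ldlra at -0.99 ± 0.51 (0.267) and srebf2 at -0.68 ± 0.41 (0.332). Without regard to the test and after adjustment for library composition, 27 of 31 members (19 sterol, 5 fatty acid and 3 others) were lower in both mutant libraries than in both control GFP+DsRed- libraries, as were 30.3% of all genes, and the exceptions were hmgcrb, acss2, srebf2 and ldlra, the last of which overlapped only after that adjustment. The median log2 fold change was -3.18 for sterol genes, -1.21 for fatty acid genes and -1.33 for regulators, against -0.05 for all genes.

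**Figure D3:**
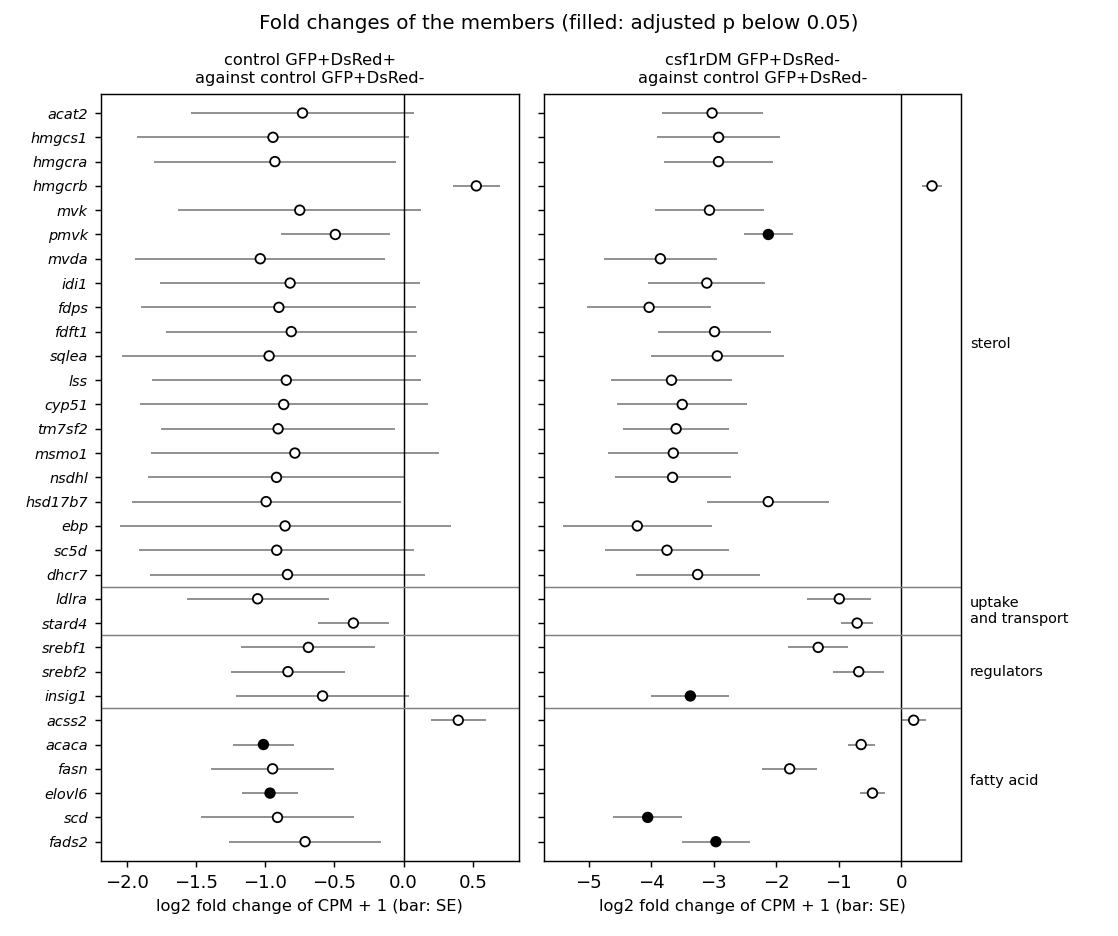
Points give the log2 fold change of CPM + 1 for each gene and bars its SE, for control GFP+DsRed+ (left) and csf1rDM GFP+DsRed- (right), each against control GFP+DsRed-. The filled points have an adjusted p below 0.05, which are elovl6 and acaca on the left and pmvk, insig1, scd and fads2 on the right. The axes of the panels differ.

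Only 2 mutant libraries were sequenced and they disagreed in size for the sterol branch, so each is described alone. Over the 19 sterol genes other than hmgcrb, csf1rDM replicate 2 lay below the control GFP+DsRed- mean by a median of 3.33-fold (1.49-fold to 5.44-fold), whereas csf1rDM replicate 3 lay below it by a median of 43.6-fold (8.74-fold to 117-fold over 18 genes, mvk with its single read left aside). On the log2(CPM + 1) scale, 23 members were more than 4-fold below both control GFP+DsRed- libraries in csf1rDM replicate 3 (19 sterol, 3 fatty acid and insig1, against 1.57% of all genes) and 2, fdps and scd, in csf1rDM replicate 2 (0.971% of all genes).

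Taking csf1rDM replicate 3 against csf1rDM replicate 2, 19 members were more than 4-fold lower, as were 0.545% of all genes. These were 18 sterol genes, without pmvk and hmgcrb, and insig1, and 0 were fatty acid genes. The counts are on the log2(CPM + 1) scale, which understates the change of low genes. On it scd differed by -1.93 and fads2 by -1.84. In CPM both fell more than 4-fold, from 5.55 (scd) and 5.15 (fads2) to 0.75, which is 3 reads. Ranked by this difference over the 20382 genes tested, members held 6 of the top 20 places and 17 of the top 40. The median log2 difference was -3.44 for sterol genes, -1.66 for regulators, -0.91 for fatty acid genes and -0.02 for all genes.

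**Figure D4:**
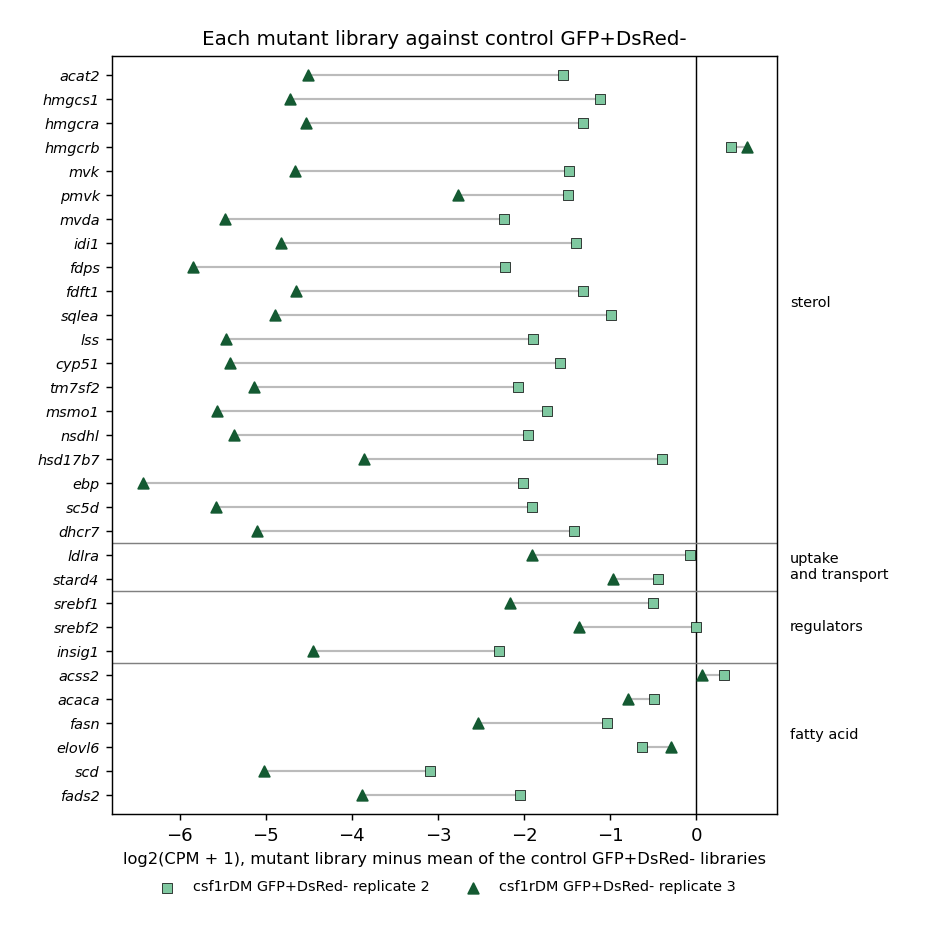
Difference in log2(CPM + 1) of csf1rDM replicate 2 (squares) and csf1rDM replicate 3 (triangles) from the mean of the control GFP+DsRed- libraries, with a grey line joining the pair of each gene. The sterol genes other than hmgcrb lie between -0.40 and -2.23 in replicate 2 and between -2.77 and -6.43 in replicate 3, and acss2, acaca, elovl6 and hmgcrb lie between -0.80 and 0.59 in both.

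With the libraries fitted apart, which leaves the lone mutant library to be assumed as variable as the other groups, limma called 18 members lower without csf1rDM replicate 3 (15 sterol, 2 fatty acid and insig1, against 1.72% of all genes) and 26 lower without csf1rDM replicate 2 (19 sterol, 3 fatty acid and 4 others, against 4.94%). In csf1rDM replicate 2 alone, scd was at -3.09 ± 0.22 (adjusted p = 0.00749), nsdhl at -1.95 ± 0.18 (0.0167) and insig1 at -2.29 ± 0.30 (0.0301). The 27 genes above were picked as lower in both mutant libraries, so their shared direction is not a result of these fits. The difference was larger in csf1rDM replicate 3 for all of them but elovl6.

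Depth and other cell types were examined beside this gap. The mutant libraries held 5072632 and 4024255 gene reads, of which the sterol branch took 17608 and 1400. Keratinocyte markers summed to 18440 and 15680 CPM in csf1rDM replicates 2 and 3, and metaphocyte markers to 4203 and 4322 CPM. Among the metaphocyte markers, spic (56.2 and 29.6 CPM) and cldnh (297 and 239 CPM) were lower in replicate 3, and grn2, cdh1 and epcam were not. The fibroblast markers summed to 2893 and 1136 CPM and the xanthophore markers to 30.03 and 18.9 CPM. Against control GFP+DsRed-, 3 of the 5 fibroblast, 8 of the 8 xanthophore, 3 of the 5 tested melanophore and 3 of the 6 iridophore markers were called lower in csf1rDM, and 2 of the 4 neutrophil markers were called higher. The melanophore markers summed to 80.6 and 80.9 CPM in control GFP+DsRed- against 6.80 and 3.25 CPM in csf1rDM, the iridophore markers to 82.9 and 67.3 CPM against 17.8 and 21.4 CPM, and the neutrophil markers to 12.7 and 15.5 CPM against 42.5 and 59.0 CPM. Immediate early genes, which respond to cell handling, summed to 5786 and 5484 CPM. The part of these marker differences in the sterol levels was not tested.

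In the comparison of control GFP+DsRed+ with csf1rDM GFP+DsRed-, which differ in genotype as well as in DsRed, 6 members were called higher in control GFP+DsRed+ (18.3% of all genes) and 0 lower (14.1%). They were scd (3.15 ± 0.55, adjusted p = 0.00565), insig1 (2.79 ± 0.62, 0.0147), pmvk (1.63 ± 0.39, 0.0193), fads2 (2.25 ± 0.55, 0.0199), tm7sf2 (2.70 ± 0.84, 0.0475) and fdps (3.13 ± 0.99, 0.0496). In all, 20 members (16 sterol, 2 fatty acid and 2 others) were higher in both control GFP+DsRed+ libraries than in both mutant libraries, as were 37.2% of all genes. This comparison shares its libraries with those above. Leaving out control GFP+DsRed+ replicate 3 or control GFP+DsRed+ replicate 1 reduced the count to 1 (8.89% or 11.1% of all genes), and leaving out csf1rDM replicate 2 or csf1rDM replicate 3 raised it to 25 or 14 (19.6% or 15.2%).

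Other genes of the same pathways did not move as a block. Of all genes tested, 14.6% were called higher and 10.8% lower in control GFP+DsRed+ against control GFP+DsRed-. For csf1rDM the shares were 3.24% and 3.27%, and the counts of all pathway lists below stand beside these shares. Of 6 further sterol and isoprenoid genes, control GFP+DsRed+ had 3 higher (lbr at 1.48 ± 0.27, adjusted p = 0.00877, ggps1 at 0.89 ± 0.20, 0.0191, and nus1 at 0.76 ± 0.19, 0.0277) and 0 lower, and csf1rDM had 1 higher, ggps1 (1.45 ± 0.20, 0.0136), and 0 lower against control GFP+DsRed-. The gene ggps1 makes geranylgeranyl diphosphate, a branch from mevalonate that leaves the route to cholesterol. Of 11 further genes of SREBP control, 3 were higher (rnf145b, amfra and rnf139, ubiquitin ligases) and 1 lower (amfrb) in control GFP+DsRed+, and 0 were called in csf1rDM.

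Uptake and efflux genes were called in both directions. Of 19 tested, 5 were higher in control GFP+DsRed+, led by the cholesterol exporters abca1b (3.35 ± 0.18, adjusted p = 8.6e-05) and abca1a (2.76 ± 0.22, 0.000263) and the esterifying enzyme soat1 (2.88 ± 0.29, 0.000705), and 6 were lower. In csf1rDM 1 was higher, the lysosomal exporter npc1 (0.89 ± 0.18, 0.0343), and scarb1 was lower (-3.32 ± 0.21, 0.00073). Scarb1 takes up lipoprotein lipid and is also a xanthophore marker.

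Of 25 further fatty acid and triglyceride genes, 5 were higher and 8 lower in control GFP+DsRed+, the smallest adjusted p-values being those of acacb (1.27 ± 0.15, adjusted p = 0.00128), me1 (2.56 ± 0.36, 0.00279) and dgat2 (-2.21 ± 0.31, 0.00281). In csf1rDM 0 were higher and 3 lower, namely dgat2, elovl4b and the acyltransferase gene gpam (-1.45 ± 0.26, 0.0294). The dgat2 values were 15.6 and 16.7 CPM, then 2.45 and 2.10 CPM, then 0.60 and 0 CPM, the mutant values lying at the level of a few reads. Of 18 fatty acid oxidation genes, 1 was higher (cpt1b) and 2 lower (pparab and cpt1ab) in control GFP+DsRed+, and 1 was lower in csf1rDM, cpt1aa (-1.11 ± 0.20, 0.0264).

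The gene scap, whose protein escorts SREBP, is not a member but was also more than 4-fold lower in csf1rDM replicate 3 than in csf1rDM replicate 2, and it was singled out after its values were seen. It measured 101 and 178 CPM, then 41.6 and 75.5 CPM, then 125 and 20.1 CPM. The scap value of csf1rDM replicate 2 lay between those of the control GFP+DsRed- libraries.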

How the data were processed

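GFP+ skin cells were sorted by FACS, RNA was isolated and libraries were made from it for 6 samples. Per the labels and methods, the authors aligned reads with STAR 2.5.4b to GRCz11, counted them per gene with HTSeq 0.11.0 on Ensembl release 94 and tested counts with edgeR. The deposited signal is gene counts scaled by the authors so that each library sums to 20000000, then rounded up. Reads per library were estimated from the step between low values, which 99.899% to 99.963% of values fitted. As the rounding prevents full recovery of counts, no count model was run here, although a count test had been planned.

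CPM was obtained by dividing the signal by the library total. TMM composition factors (0.9217 to 1.128) were computed, genes reaching 1 CPM in 2 libraries or more were kept, and limma 3.58.1 in R 4.3.3 (lmFit, eBayes with trend) was fitted to log2(CPM + 1), with 1 coefficient per group and 3 residual degrees of freedom. The procedure was tested on simulated data. The members and gene lists were chosen with earlier results of these data known. All members held are named, with library values for those called between genotypes, the 10 with the smallest adjusted p between control populations and a set of regulators and enzymes. Alternatives changed the factors, pseudocount, filter, libraries, replicate term, depth and threshold. Intervals cover counting error only. Library pairs with the same replicate number had correlations of -0.423 to 0.031 and were not treated as paired. Some genes of the pathway lists are not reported here.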

Additional observations from a re-analysis of the deposited data

How the results depend on the processing

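The edgeR and DESeq2 fits planned on recovered reads were not run, because the reads were estimated and not fully recovered. The read counts, counting intervals and thinned fit rest on those estimates. Without composition factors the median of all genes shifted to -0.21 between the control populations and to -0.18 between the genotypes, with 11.6% of genes higher and 16% lower in the former. For control GFP+DsRed+ against control GFP+DsRed-, 2 members were lower and 0 higher. The fit of the groups compared alone gave 23 lower and 1 higher, thinning to the shallowest library gave 1 higher, and a log2 fold change beyond 1 or beyond 2 left 1 or 0 lower. Leaving out each library gave 0 to 24 lower. The sterol median (-0.86) kept its direction in these, and the fatty acid median (-0.93) was -1.14 without composition factors, -0.81 with a pseudocount of 5 CPM and -1.02 to -0.77 with a library left out. For csf1rDM against control GFP+DsRed-, the 4 lower members became 7 without composition factors, 8 with a pseudocount of 5 CPM, 1 without a filter on low values and 0 to 26 with a library left out. The sterol median (-3.18) ranged from -4.99 to -1.51 and the fatty acid median (-1.21) from -1.67 to -0.83 with a library left out, and the latter was -1.36 without composition factors. For control GFP+DsRed+ against csf1rDM, the 6 higher members became 1 to 25 with a library left out and the 0 lower became 0 to 1. There the fatty acid median (0.52) was 0.43 after thinning and 0.079 to 0.96 with a library left out, and ldlra (-0.06) was 0.86 without csf1rDM replicate 2 and -0.98 without csf1rDM replicate 3. The causes of these shifts were not tested.

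A replicate block by replicate number leaves 1 residual degree of freedom. With it, 0 members were lower in control GFP+DsRed+ (3.14% of all genes) and the sterol median turned to 0.39 (fatty acid -0.26). In csf1rDM 2 were lower, as were 0.231% of all genes (fatty acid median -1.04). In control GFP+DsRed+ 22 were higher than in csf1rDM, as were 10.8% of all genes (fatty acid median 0.72). The numbers are not shown to pair the libraries. A block with crossed pairs, chosen after seeing the data, gave 28 lower and 2 higher members between the control populations, where it called 22.7% of all genes lower and 23.9% higher.

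Depth limits the lowest values, since 3 members lay at or under 3 reads in csf1rDM replicate 3, and 2 libraries per group limit every SE.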

Other observations

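Genes that turn cholesterol into bile acids and bile alcohols shared the gap between the mutant libraries. They were listed after their values were seen, and no p-value is drawn from the list. Of 14 such genes tested, 8 were more than 4-fold lower in csf1rDM replicate 3 than in csf1rDM replicate 2, with a median log2 difference of -2.81 over the 14, and the gene with the largest such difference of all 20382 was cyp8b2, a sterol hydroxylase. It had 297 and 423 CPM in control GFP+DsRed-, 107 (replicate 3) and 209.6 (replicate 1) CPM in control GFP+DsRed+, and 297 (replicate 2) and 5.75 (replicate 3) CPM in csf1rDM.

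In the same library order sult2st3, a sulfotransferase gene, measured 1647 and 2314 CPM, then 578 and 1218 CPM, then 1300 and 34.3 CPM. The hydroxysteroid dehydrogenase gene hsd3b7 measured 920 and 1102 CPM, then 440.5 and 557 CPM, then 929 and 114 CPM, and the organic solute transporter gene slc51a 471 and 581 CPM, then 212 and 292 CPM, then 473 and 30.3 CPM. For cyp8b2, hsd3b7 and slc51a, csf1rDM replicate 2 stood at the level of control GFP+DsRed-, unlike most sterol synthesis genes. In contrast cyp7a1, the rate-limiting enzyme of bile acid synthesis, was already low there, with 629.5 and 314 CPM, then 382 and 203 CPM, then 75.3 and 2.00 CPM. Between csf1rDM and control GFP+DsRed-, limma called 1 of the 14 genes, sult2st2, lower (log2 fold change -1.27 ± 0.27, adjusted p = 0.0405), a gene at 3.35 CPM or less in every library.

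Genes that supply acetyl-CoA, also listed after their values were seen, differed from each other. The ATP citrate lyase gene aclya had 552 and 486 CPM, then 257 and 239.8 CPM, then 155 and 85.0 CPM, and was lower in csf1rDM than in control GFP+DsRed- (log2 fold change -2.01 ± 0.27, adjusted p = 0.0122 by limma). The gene acss2l measured 99.0 and 128 CPM, then 48.2 and 50.8 CPM, then 27.04 and 2.00 CPM, whereas acss2 lay between 34.1 and 49.2 CPM in all 6 libraries.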
